A study of Homo sapiens with 20 samples.

Results

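The comparison described here set differentiated Caco-2 cells that received cell-free culture supernatant of Escherichia coli O157:H7 for 24 h against cells that received medium alone for 24 h. Members were chosen by their labels alone: the 3 arrays titled as E. coli O157:H7 supernatant and the 3 titled as 24 h medium, which are 6 of the 20 arrays of the series, and the difference of the group means was taken for every gene. Caco-2 comes from a human colorectal carcinoma and, once confluent, resembles the absorptive cells of the small intestine. It was differentiated here for 5 days on culture inserts, at passages 47 to 51. The bacterium was grown in Luria Bertani broth with 1% glucose, and its sterile-filtered supernatant was given on the apical side at 5% of the medium volume. RNA input was 1 µg in all 6 arrays. No group that received broth alone was analysed here, so the broth and the bacterial products in it cannot be told apart. The remaining 14 arrays, labelled from 5 µg of RNA, form 7 groups of 2: medium for 8 h, 8 h with live bacteria of a probiotic strain (L. acidophilus NCFM, B. lactis 420 or L. salivarius Ls-33), and 24 h with 10% supernatant of 1 of them. The series text gives the E. coli samples as single runs and says nothing of separate cultures, so the p-values below measure the spread between these arrays, which may be technical.

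E. coli O157:H7 is an enterohaemorrhagic pathogen. Its strains typically make Shiga toxins, which bind the glycolipid globotriaosylceramide, and a flagellin that is sensed by the receptor TLR5. Toll-like receptors signal through adaptor and kinase proteins to NF-kB, a transcription factor that is held in the cytoplasm by IkB proteins and that switches on chemokines together with the genes of its own inhibitors. Absorptive intestinal cells also carry the machinery for sugar, lipid, bile acid, ion and metal uptake, and Caco-2 cells secrete several plasma proteins that the liver makes in the adult.

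All values are log2 signals of Affymetrix probe sets, 1 probe set for each gene, and a difference is the mean of the 3 supernatant arrays minus the mean of the 3 medium arrays, given ± its standard error from the limma fit. A gene was tested if its mean over the 6 arrays was at or above 2.78, the 40th percentile over named genes, and was called if its adjusted p was under 0.05. Median signals ran from 2.66 to 2.72 over the 6 arrays. Correlations across probe sets were 0.994 to 0.996 within medium, 0.997 within supernatant, and 0.971 to 0.973 between the groups. The ACTB signal at the 3' end minus that at the 5' end, a sign of RNA quality, was 1.90, 2.17 and 1.94 with medium and 2.12, 2.18 and 2.22 with supernatant, and overlapped. For GAPDH the same measure was 0.223, 0.117 and 0.171 with medium and 0.251, 0.337 and 0.246 with supernatant and did not overlap. Its part in the results was not tested. Of 17 enterocyte markers, 16 were tested. Of these, 9 fell, among them SLC26A3 (-4.03), ANPEP (-2.002) and SLC15A1 (-1.27), and 4 rose, among them CDX2 (1.52) and SI (0.99). EPCAM, KRT8 and ALPI were not called (-0.035, 0.077 and -0.027). Over all genes tested, 27.8% fell and 36.3% rose. APOA1, which has 3 probe sets, lay below the tested range in both groups with the probe set used. Of 8 leukocyte markers with a probe set, PTPRC, CD3E, MS4A1 and CD53 lay below the tested range in both groups. The other 4 were called, as were 64.1% of all genes tested: ITGAM (1.22), CD14 (0.51) and CSF1R (0.35) rose and CORO1A fell (-0.52). The mean over the leukocyte markers lay between 2.88 and 2.97 in medium arrays and between 3.04 and 3.14 in supernatant arrays, and its part in the results was not tested.

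Of 11865 genes tested, 7605 (64.1%) were called: 4311 (36.3%) rose and 3294 (27.8%) fell. A change of at least 2-fold was called for 2187 genes (18.4%), of which 1412 (11.9%) rose and 775 (6.53%) fell. In 8185 genes (69%) the 3 supernatant arrays all lay on one side of the 3 medium arrays. The median difference over all genes tested was 0.048 and the median absolute difference 0.438. With so wide a background, the counts in the 50 gene lists below are descriptions, read against these shares and this median. A gene low in both groups was left out and a gene high in only 1 group was kept, so the counts cover tested members and are no independent support. Of the 1412 genes that rose at least 2-fold, 127 had a medium mean below the tested range, where the size of the rise depends on background signal. Lists in which more members rose than fell numbered 28 of 50.

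**Figure D1:**
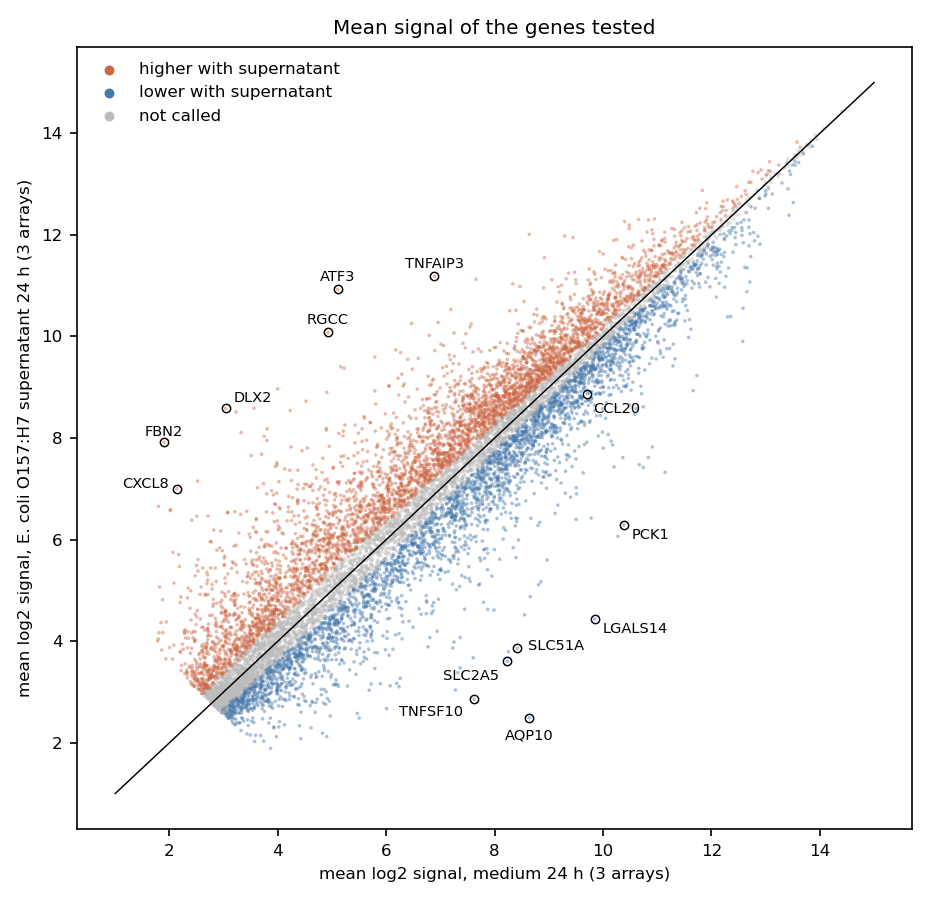
Mean log2 signal of each of the 11865 genes tested, with medium for 24 h on the x axis and with E. coli O157:H7 supernatant for 24 h on the y axis (3 arrays each), coloured by call, with the line of equal signal and selected genes circled. The cloud is wide on both sides of the line, with ATF3 and FBN2 far above it and AQP10 and LGALS14 far below it.

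**Figure D2:**
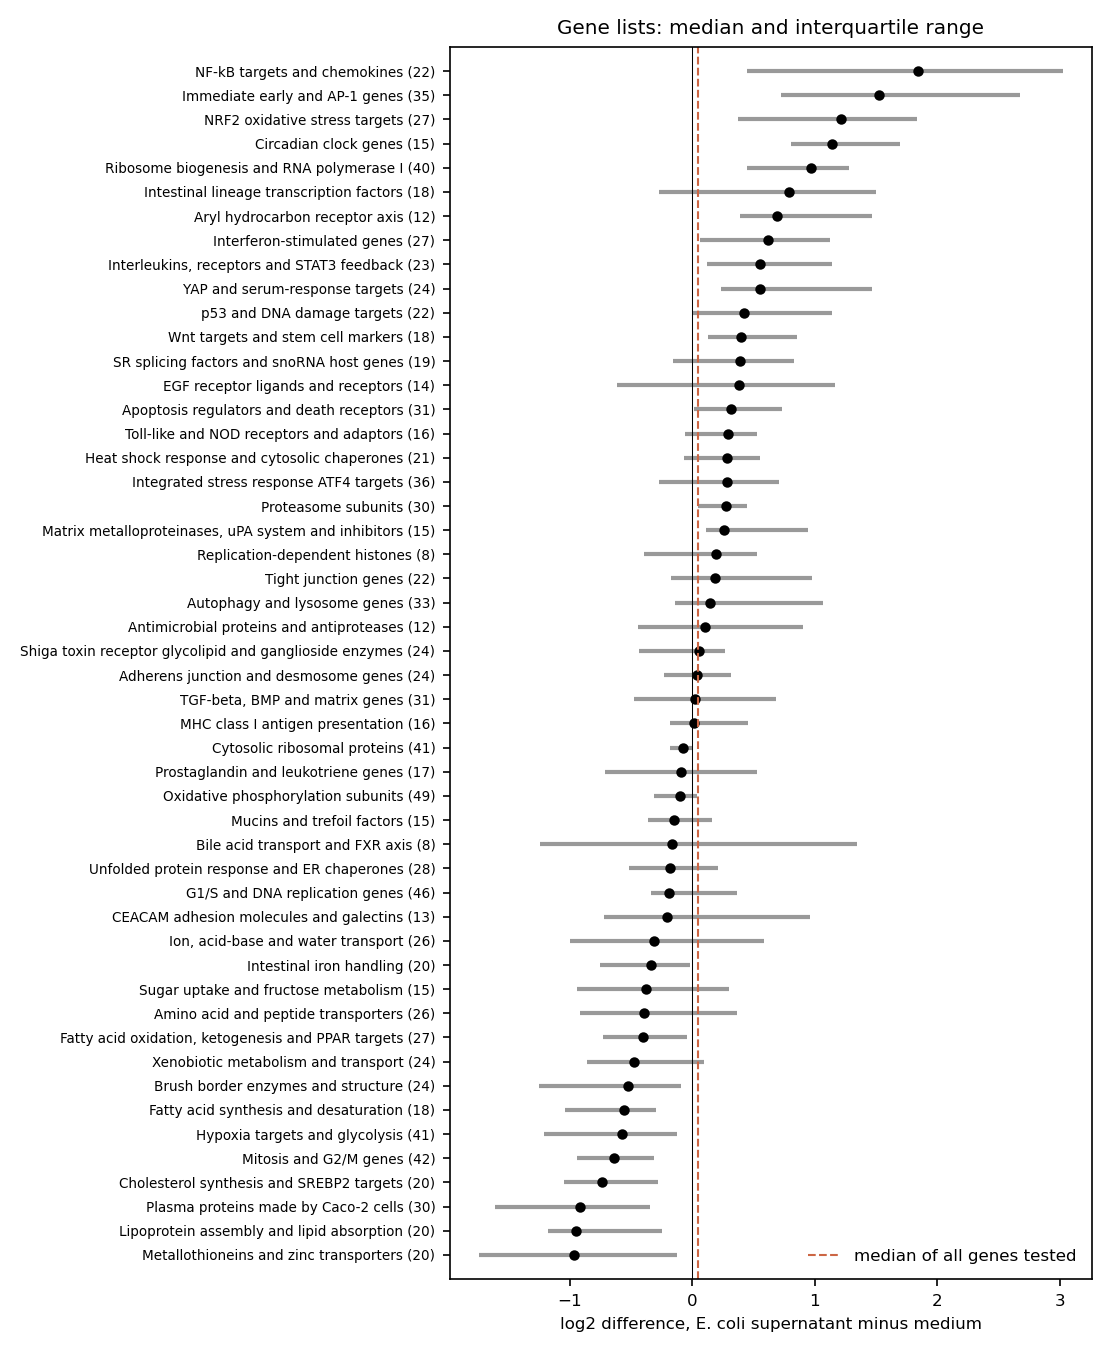
Median (point) and interquartile range (bar) of the log2 difference, E. coli supernatant minus medium, over the tested members of each of 50 gene lists, with the number tested in brackets and the median of all genes tested as a dashed line. The NF-kB, immediate early, NRF2, circadian clock and ribosome biogenesis lists lie farthest to the right, and the metallothionein, lipoprotein, plasma protein and cholesterol lists farthest to the left.

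By the probe set used for each gene, the largest rise was in FBN2, the extracellular matrix protein fibrillin-2. Its signals were 2.19, 1.66 and 1.85 with medium, below the tested range, and 7.88, 8.32 and 7.56 with supernatant (difference 6.02 ± 0.21, adjusted p = 7.22e-10). ATF3, a stress-induced transcription factor, gave 5.36, 4.80 and 5.14 with medium and 10.95, 10.87 and 10.96 with supernatant, a difference of 5.83 ± 0.13 or 56.7-fold (adjusted p = 5.89e-11). Neither gene's groups came near each other. Other probe sets of ATF3 gave 4.28 and 2.79, both called. DLX2, a homeobox factor, rose from 3.04, 2.91 and 3.15 to 8.60, 8.58 and 8.57 (5.55 ± 0.13); a second probe set of DLX2 gave -0.19 and was not called. RGCC, a regulator of cell cycle progression, rose from 4.86, 5.03 and 4.88 to 10.14, 10.05 and 10.06 (5.16 ± 0.10, adjusted p = 2.6e-11). In both genes the 3 supernatant arrays lay close together, far above every medium array. The other 11 of the 15 largest rises were C11orf96 (5.29, but 0.017 and not called with a second probe set), the ubiquitin ligase NEURL3 (5.03), TMEM80 (4.97), the neutrophil chemokines CXCL8 (4.87) and CXCL3 (4.64), the potassium channel regulator ABCC9 (4.86), the natriuretic peptide gene NPPB (4.79), the coactivator PPARGC1A (4.57), CARD8-AS1 (4.56), the TNF receptor family member TNFRSF9 (4.38) and the pro-apoptotic gene PMAIP1 (4.31). Of these, CXCL8, CXCL3, ABCC9, PPARGC1A and CARD8-AS1 had medium means below the tested range. Other probe sets gave smaller called rises for TMEM80 (1.89 and 2.11), TNFRSF9 (1.77 and 0.65), CARD8-AS1 (2.76) and PMAIP1 (4.16). For CXCL8 another probe set gave a larger rise (7.09).

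The largest fall was in AQP10, an aquaglyceroporin of the intestinal epithelium. Its signals were 8.51, 8.70 and 8.70 with medium and 2.79, 2.76 and 1.92 with supernatant (-6.14 ± 0.21, adjusted p = 8.39e-10), so that the mean after treatment lay below the tested range. LGALS14, a galectin, fell from 9.84, 9.60 and 10.10 to 4.60, 4.16 and 4.55 (-5.41 ± 0.16). The death ligand TNFSF10 (TRAIL) fell from 7.68, 7.48 and 7.70 to 2.88, 2.67 and 3.02 (-4.76 ± 0.15, 27.2-fold lower). Supernatant arrays of these 3 genes lay more than 4 log2 units below every medium array. The fructose transporter SLC2A5 fell from 8.20, 8.32 and 8.19 to 3.38, 3.80 and 3.65 (-4.63 ± 0.15). SLC51A, one chain of the heteromeric bile acid exporter OST, fell from 8.39, 8.06 and 8.81 to 4.52, 3.11 and 3.94 (-4.56 ± 0.30) and varied more between treated arrays than the other genes of this paragraph given array by array. PCK1, which makes phosphoenolpyruvate for gluconeogenesis, fell from 10.17, 10.57 and 10.41 to 6.44, 6.17 and 6.26 (-4.10 ± 0.12). The rest of the 15 largest falls were LINC01091 (-4.46), NRN1 (-4.24), the hypoxia-induced gene ANKRD37 (-4.21), the chloride-bicarbonate exchanger SLC26A3 (-4.03), GPLD1 (-3.94), arginase ARG1 (-3.93), C16orf54 (-3.89), lysyl oxidase LOX (-3.82) and PHEX (-3.78). Other probe sets gave smaller called falls for TNFSF10 (-3.78 and -4.09), SLC2A5 (-2.68), GPLD1 (-3.88, -1.28 and -1.07) and PHEX (-1.87). For LOX they gave larger falls (-4.81 and -4.28).

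Of the bacterial sensors, TLR5 fell, CD14 rose and TLR4 was not tested, and several genes that encode signalling proteins of Toll-like or NOD receptors rose. TLR5, the flagellin receptor, gave 3.14, 3.67 and 2.86 with medium and 2.19, 2.84 and 2.35 with supernatant, a fall of 0.77 on the log2 scale (adjusted p = 0.00772) that ended below the tested range. CD14, the lipopolysaccharide co-receptor, gave 3.71, 3.82 and 3.95 and 4.21, 4.22 and 4.58 (0.51 ± 0.15, adjusted p = 0.0121); its groups did not overlap, but without the third supernatant array the difference was 0.39 and was not called (adjusted p = 0.0633). TLR4, the lipopolysaccharide receptor, gave 2.22, 1.80 and 1.95 and 2.08, 1.95 and 2.22 and was below the tested range in both groups. Larger differences were seen in the signalling genes IRAK2 and RIPK2. IRAK2, a kinase of the receptor complex, rose from 4.82, 4.76 and 5.10 to 8.01, 8.16 and 8.41 (3.30 ± 0.15, adjusted p = 4.48e-09), and RIPK2, the kinase downstream of NOD receptors, from 5.20, 4.46 and 4.95 to 7.01, 6.996 and 6.96 (2.12 ± 0.18). The adaptor TICAM1 (1.30 ± 0.15) and the kinase-binding protein TAB2 (0.52 ± 0.091) rose as well. In all, 8 of 16 tested sensors and adaptors rose and 3 fell (median 0.29, or 0.12 over all 24 members with a probe set).

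NF-kB subunits, their inhibitors and several target chemokines rose, and CCL20 fell. Of 22 tested members of the list, 16 rose and 1 fell (median 1.84), and 15 rose at least 2-fold against 11.9% of all genes. With no filter on level, 21 of 33 members with a probe set rose and 1 fell, against 22.4% and 18.1% of all 19775 genes, of which 40.5% were called in either direction, and the median over the 33 was 0.93. The subunit gene NFKB1 rose from 3.37, 3.39 and 3.51 to 6.62, 6.48 and 6.58 (3.13 ± 0.14, adjusted p = 4.18e-09). Subunit genes chosen after their values were seen were RELB (2.70), REL (2.39), NFKB2 (1.44) and RELA (0.72), and each rose. The inhibitors rose too. NFKBIE, which encodes IkB-epsilon, went from 4.12, 3.64 and 3.64 to 8.09, 7.84 and 7.92 (4.15 ± 0.16). NFKBIA, which encodes IkB-alpha, went from 8.38, 7.90 and 7.79 to 9.71, 9.89 and 9.76 (1.76 ± 0.13). TNFAIP3, which encodes the deubiquitinase A20 that damps the pathway, went from 7.46, 6.52 and 6.69 to 11.12, 11.19 and 11.23 (4.29 ± 0.19, 19.6-fold). In these inhibitor genes every supernatant array lay above every medium array.

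The chemokines did not move as one. CXCL8 (interleukin-8), which attracts neutrophils, gave 1.98, 2.32 and 2.11 with medium, below the tested range, and 6.86, 6.92 and 7.23 with supernatant (4.87 ± 0.16, adjusted p = 6.01e-10). Another probe set of CXCL8 gave a larger rise (7.09 ± 0.18) and was called. CXCL3, another neutrophil chemokine, gave 1.997, 2.74 and 2.82 and 7.45, 7.31 and 6.70 (4.64 ± 0.24, adjusted p = 1.69e-08). CCL20, which attracts dendritic cells and lymphocytes, gave 9.72, 9.69 and 9.73 and 8.94, 8.78 and 8.90 (-0.84 ± 0.074, adjusted p = 1.15e-06), with the supernatant arrays below every medium array. ICAM1, the leukocyte adhesion receptor, gave 7.05, 6.43 and 6.84 and 7.29, 7.04 and 7.07. Its groups overlapped and the difference of 0.36 ± 0.16 was not called (adjusted p = 0.0623), but the call depended on the fit. It was called without the first medium array (0.50, adjusted p = 0.00842), with all 20 arrays in 1 fit (adjusted p = 0.0102), with the replicate number as a block (adjusted p = 0.0412) and with the ACTB 3'-5' difference as a covariate (0.71, adjusted p = 0.000815). Its 2 other probe sets gave -0.0046 and 0.11 and were not called. CXCL1 (3.29) and CXCL10 (1.97), chosen after their values were seen, also rose, while SOD2 (0.16) and NFKBIZ (-0.092) were not called.

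Promoter sequences of 5 genes of this list are printed because the list is defined by NF-kB control and because the genes span large rises and, in ICAM1, a small difference whose call depended on the fit. They are RefSeq sequences of GRCh38.p14 from 250 bases before to 50 bases after the start of the gene, 5' to 3' on the gene's strand. Capitals mark matches on either strand to GGANNTTCC, a kappaB-like motif. They lie at chr4:73740319-73740618 (plus strand, CXCL8), chr4:74038640-74038939 (minus strand, CXCL3), chr14:35404700-35404999 (minus strand, NFKBIA), chr6:137867009-137867308 (plus strand, TNFAIP3) and chr19:10270870-10271169 (plus strand, ICAM1).
CXCL8: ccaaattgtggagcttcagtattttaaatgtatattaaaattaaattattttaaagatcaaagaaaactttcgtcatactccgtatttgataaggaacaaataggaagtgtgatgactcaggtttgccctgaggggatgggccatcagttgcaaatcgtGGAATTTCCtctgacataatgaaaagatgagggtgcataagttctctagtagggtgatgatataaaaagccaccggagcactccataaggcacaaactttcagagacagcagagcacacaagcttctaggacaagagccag
CXCL3: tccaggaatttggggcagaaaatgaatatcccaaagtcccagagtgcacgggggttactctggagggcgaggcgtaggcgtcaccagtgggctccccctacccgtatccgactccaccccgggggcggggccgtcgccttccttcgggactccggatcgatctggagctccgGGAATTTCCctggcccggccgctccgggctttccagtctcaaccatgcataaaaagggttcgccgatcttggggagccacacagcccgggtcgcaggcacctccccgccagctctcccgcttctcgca
NFKBIA: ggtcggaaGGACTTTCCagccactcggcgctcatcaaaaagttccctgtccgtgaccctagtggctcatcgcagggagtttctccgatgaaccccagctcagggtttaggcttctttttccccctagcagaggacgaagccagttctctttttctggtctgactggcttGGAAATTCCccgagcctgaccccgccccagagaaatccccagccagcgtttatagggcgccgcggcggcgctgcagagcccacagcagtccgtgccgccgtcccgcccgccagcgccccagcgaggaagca
TNFAIP3: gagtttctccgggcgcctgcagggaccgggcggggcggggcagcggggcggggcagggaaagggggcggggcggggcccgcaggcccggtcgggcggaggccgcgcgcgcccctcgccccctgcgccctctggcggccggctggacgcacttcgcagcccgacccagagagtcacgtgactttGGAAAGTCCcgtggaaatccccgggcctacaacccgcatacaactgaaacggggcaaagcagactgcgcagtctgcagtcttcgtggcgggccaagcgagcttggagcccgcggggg
ICAM1: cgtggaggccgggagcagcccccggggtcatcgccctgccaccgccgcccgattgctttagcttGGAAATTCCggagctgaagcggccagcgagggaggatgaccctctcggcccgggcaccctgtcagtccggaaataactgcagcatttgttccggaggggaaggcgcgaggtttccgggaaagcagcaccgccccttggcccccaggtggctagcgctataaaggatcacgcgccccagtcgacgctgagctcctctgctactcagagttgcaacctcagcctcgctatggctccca
The match began 91 bases before the start in CXCL8, 78 in CXCL3, 67 in TNFAIP3 and 186 in ICAM1, and NFKBIA held matches that began 242 and 81 bases before it. A match was present in 14 of the 18 list members that had both a probe set and a promoter sequence (77.78%), against 1030 of 22114 promoters of the same length (4.658%). It was present in 8 of the 8 such members that rose. A match was also present in ICAM1, which was not called, and in CXCL11, CXCL2, CXCL5, CXCL6 and LCN2, which were not tested. The windows of CCL20, which fell, and of IL1B, TNF and TNFAIP2, which were not tested, held no match. Members of this list are known targets, for many of which such a site is part of the reason they are on it.

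Cytokine, receptor and STAT3 feedback genes mostly rose (16 of 23 tested, 1 fell, median 0.56). Over all 34 members with a probe set the median was 0.25. SOCS2, a suppressor of cytokine signalling, rose from 5.11, 4.996 and 5.38 to 9.42, 9.37 and 9.42 (4.24 ± 0.12, 18.9-fold). IL32, a pro-inflammatory cytokine, rose from 8.80, 8.02 and 8.58 to 10.81, 11.06 and 11.09 (2.52 ± 0.16), and LIF, an interleukin-6 family cytokine, from 4.16, 3.68 and 4.17 to 6.24, 6.19 and 6.15 (2.19 ± 0.16). The groups of these 3 genes did not overlap. The member that fell was IL22RA1, a subunit of the interleukin-22 receptor (-1.06). Interferon-stimulated genes split: 16 of 27 rose and 5 fell (median 0.62, or 0.27 over all 34 with a probe set). The transcription factor IRF1 rose from 3.27, 3.86 and 3.74 to 6.70, 7.18 and 7.19 (3.40 ± 0.19), and ISG20 (2.35 ± 0.14), IFI35 (1.65 ± 0.16) and ISG15 (1.03 ± 0.085) rose. The antiviral genes IFIT1 (-0.88), MX1 (-0.43) and BST2 (-0.81), chosen after their values were seen, fell. Of 16 tested genes of MHC class I presentation, 5 rose and 4 fell, against 36.3% and 27.8% of all genes tested. The light chain gene B2M (0.45 ± 0.044) and the peptide transporter gene TAP1 (0.79 ± 0.15) rose, and the chaperone genes CALR (-0.86 ± 0.13) and PDIA3 (-0.41 ± 0.060) fell. Among 12 antimicrobial proteins and antiproteases, the elastase inhibitor PI3 rose (1.70 ± 0.16), and SERPINA1 (-1.64 ± 0.056), S100A9 (-1.29 ± 0.17) and ANG (-1.02 ± 0.12) fell.

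**Figure D3:**
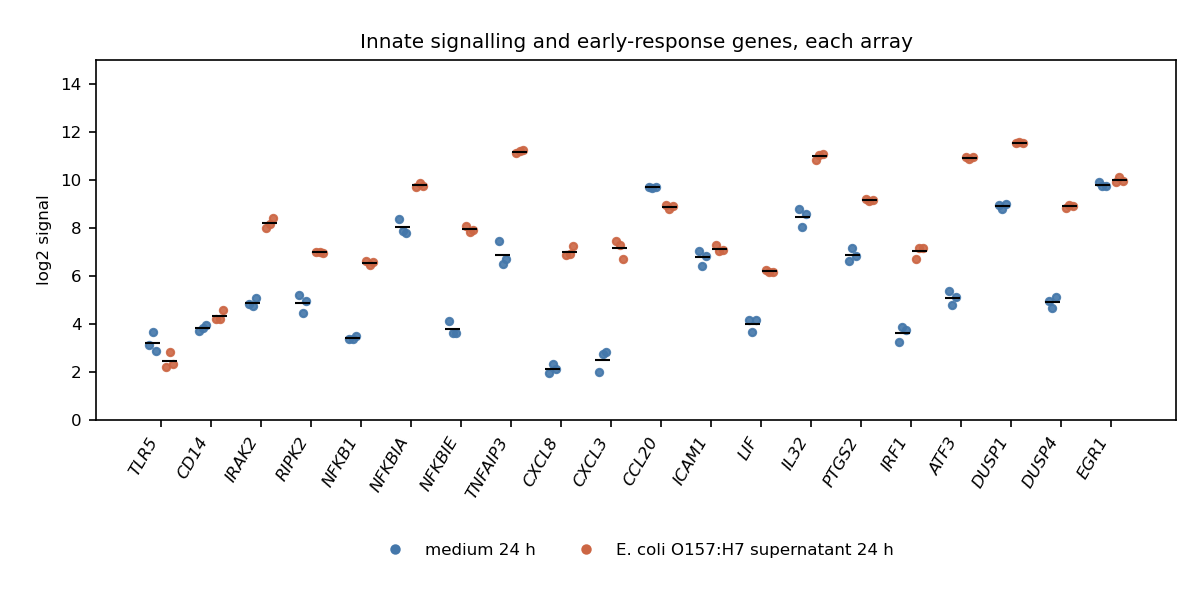
Log2 signal of each array (points) and group mean (line) for 20 genes of innate sensing, NF-kB, cytokines and early response, with medium for 24 h in blue and E. coli O157:H7 supernatant for 24 h in orange (3 arrays each). The supernatant arrays of CXCL8 (6.86 to 7.23) lie far above the medium arrays, those of CCL20 (8.78 to 8.94) lie below them, and the groups of ICAM1 overlap.

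Immediate early and AP-1 genes formed one of the lists with the most members higher: 30 of 35 tested rose and 1 fell (median 1.53), and 22 rose at least 2-fold. The phosphatase genes DUSP1 and DUSP4, whose products switch off MAP kinases, rose from 8.98, 8.79 and 8.98 to 11.53, 11.59 and 11.53 (2.64 ± 0.068) and from 4.94, 4.66 and 5.11 to 8.82, 8.98 and 8.90 (3.998 ± 0.13). KLF4, a transcription factor of differentiating epithelium, rose from 8.33, 8.47 and 8.39 to 10.56, 10.57 and 10.42 (2.12 ± 0.075), and the stress gene GADD45A by 1.74 ± 0.060. The AP-1 subunits JUN (3.79), FOSL1 (3.97) and FOS (1.55), chosen after their values were seen, rose. The member that fell was DUSP6 (-0.64). EGR1, a growth-factor-induced factor, gave 9.93, 9.75 and 9.75 and 9.92, 10.12 and 9.95 and was not called (0.19 ± 0.078, adjusted p = 0.0515), but its 2 other probe sets gave 0.99 and 0.40 and were called, and the probe set used was called without the first medium array (0.25, adjusted p = 0.00817). Among EGF receptor ligands, HBEGF rose from 4.37, 3.95 and 4.06 to 7.23, 7.42 and 7.52 (3.27 ± 0.16) and EREG from 8.79, 8.89 and 9.02 to 10.43, 10.26 and 10.48 (1.49 ± 0.084; another probe set of EREG gave -0.14). The ligand gene NRG1 rose by 3.25 ± 0.24 from a level below the tested range (another probe set gave -0.38 and was called), and the receptor ERBB3 fell (-1.26 ± 0.079). Among targets of YAP and of serum response, 17 of 24 rose and 3 fell (median 0.55). They included the matricellular gene CCN1, from 6.75, 6.92 and 6.71 to 10.12, 9.93 and 10.01 (3.23 ± 0.094), the actin-binding gene TAGLN (2.63 ± 0.16, but 0.23 and not called with another probe set), AJUBA (1.79 ± 0.066) and ANKRD1 (2.67 ± 0.15).

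Most genes of oxidative and electrophilic stress rose. NRF2, encoded by NFE2L2, is a transcription factor released from KEAP1 by electrophiles, and 21 of 27 tested members of its list rose while 4 fell (median 1.22). HMOX1, which degrades haem, rose from 5.94, 5.26 and 5.60 to 8.44, 8.38 and 8.37 (2.79 ± 0.16). TXNRD1, which reduces thioredoxin, rose from 10.53, 10.27 and 10.40 to 12.18, 12.31 and 12.29 (1.86 ± 0.067, adjusted p = 1e-09), and the cystine transporter SLC7A11 from 7.03, 7.14 and 7.04 to 9.17, 9.25 and 9.23 (2.15 ± 0.088). In each, the groups were separate. SQSTM1, an autophagy receptor (2.69 ± 0.11, but 0.11 and not called with another probe set), GPX2, an epithelial glutathione peroxidase (1.66 ± 0.058), NFE2L2 itself (1.65 ± 0.057), ME1 (1.22 ± 0.063), NQO1 (0.79 ± 0.045) and AKR1C3 (0.62 ± 0.050) also rose. The 4 members that fell were EPHX1 (-0.57), PGD (-0.29), PRDX1 (-0.29) and TALDO1 (-0.29). In the aryl hydrocarbon receptor list, which holds genes switched on by planar aromatic ligands, 9 of 12 rose (median 0.69), while 0 fell by limma's adjusted p and 0 at an unadjusted p under 0.05. CYP1B1 rose from 7.08, 7.76 and 7.53 to 9.82, 9.76 and 9.76 (2.32 ± 0.14), CYP1A1 from 11.99, 11.65 and 11.87 to 12.88, 12.94 and 12.80 (1.04 ± 0.073), and TIPARP, a repressor of the receptor, from 7.76, 7.49 and 7.71 to 11.07, 11.14 and 11.16 (3.47 ± 0.084, 11.1-fold). KYNU, an enzyme of kynurenine breakdown, rose by 3.48 ± 0.16.

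Stress pathways of protein synthesis and folding did not move alike. The ATF4 list, the transcriptional arm of the integrated stress response, had 21 of 36 members higher and 9 lower (median 0.28). ATF4 rose from 10.94, 10.93 and 10.88 to 12.02, 12.07 and 11.99 (1.11 ± 0.048) and DDIT3, which encodes CHOP, from 4.92, 4.35 and 4.72 to 6.28, 6.31 and 6.25 (1.62 ± 0.16, adjusted p = 3.43e-06). CEBPB (0.81 ± 0.053) and the amino acid transporter chain SLC3A2 (0.84 ± 0.055) rose. The list of endoplasmic reticulum chaperones had 7 of 28 higher and 15 lower (median -0.18). HSPA5, the chaperone BiP, fell from 13.002, 13.19 and 13.18 to 12.85, 12.78 and 12.79 (-0.32 ± 0.051), the disulfide isomerase PDIA4 fell from 10.42, 10.68 and 10.59 to 9.52, 9.61 and 9.44 (-1.04 ± 0.079), and SEL1L (-0.97 ± 0.088), HERPUD1 (-0.82 ± 0.052) and PDIA6 (-0.49 ± 0.053), of endoplasmic reticulum degradation and folding, fell. Thus ATF4 and DDIT3 were higher in the same arrays in which HSPA5 was lower. Cytosolic chaperones were mixed (11 of 21 higher, 4 lower): HSPB8 rose from 8.31, 8.38 and 8.30 to 11.05, 10.95 and 11.11 (2.70 ± 0.070), BAG3 (0.99 ± 0.081) and DNAJB4 (1.44 ± 0.17) rose, and the collagen chaperone SERPINH1 fell (-0.94 ± 0.061).

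Genes of cell death moved in both directions. PMAIP1, which encodes the BH3-only protein NOXA, rose from 4.13, 3.99 and 4.57 to 8.62, 8.47 and 8.54 (4.31 ± 0.16, 19.9-fold), and BIK, another BH3-only gene, from 7.69, 7.48 and 7.93 to 9.68, 9.73 and 9.86 (2.06 ± 0.11). TNFRSF9 (4-1BB) rose from 3.67, 3.83 and 3.91 to 7.98, 8.27 and 8.30 (4.38 ± 0.14), against the fall of TNFSF10 given above. Of 31 tested apoptosis regulators, 15 rose and 5 fell (median 0.31). In the p53 list, 13 of 22 rose and 4 fell (median 0.42). The kinase gene PLK2 rose from 5.97, 5.79 and 5.60 to 8.94, 8.998 and 8.85 (3.14 ± 0.12), and the cyclin gene CCNG1 fell from 12.04, 12.11 and 12.13 to 10.80, 10.73 and 10.80 (-1.31 ± 0.050).

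Most hypoxia-induced and glycolytic genes fell: 29 of 41 tested fell and 7 rose (median -0.57), with 12 lower by at least 2-fold against 6.53% of all genes. ANKRD37 fell from 10.37, 10.08 and 10.38 to 6.31, 5.52 and 6.37 (-4.21 ± 0.19). NDRG1, a stress gene induced by low oxygen, fell from 11.86, 11.67 and 11.66 to 9.31, 9.17 and 9.21 (-2.500 ± 0.070, 5.66-fold lower), the mitophagy gene BNIP3 from 10.92, 10.84 and 10.81 to 9.51, 9.43 and 9.45 (-1.40 ± 0.062), and the glucose transporter SLC2A1 from 10.37, 10.21 and 10.17 to 9.06, 8.99 and 9.07 (-1.21 ± 0.073). The supernatant arrays of these genes lay below all medium arrays. ADM, which encodes adrenomedullin and is also a hypoxia target, rose from 9.80, 9.78 and 9.65 to 11.30, 11.33 and 11.36 (1.59 ± 0.061). Chosen after their values were seen, the kinases PFKFB4 (-3.27) and PDK1 (-1.69) and the angiogenic factor VEGFA (-0.89) fell, and HIF1A rose (0.81). In the sugar list 9 of 15 fell and 4 rose. TXNIP, a glucose-responsive inhibitor of thioredoxin, was among those that rose (0.84 ± 0.056).

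Genes of lipid synthesis, oxidation and export mostly fell. In the list of cholesterol synthesis, 14 of 20 tested fell (median -0.74), while 0 rose by limma's adjusted p and 0 at an unadjusted p under 0.05. LSS, the lanosterol synthase, fell from 9.01, 8.85 and 8.95 to 7.33, 7.27 and 7.35 (-1.63 ± 0.090), and FDPS (-1.33 ± 0.062), INSIG1 (-1.20 ± 0.069) and MSMO1 (-1.10 ± 0.052) fell. Of fatty acid synthesis genes, 13 of 18 fell and 4 rose (median -0.56). The desaturase gene SCD fell from 12.63, 12.69 and 12.66 to 11.42, 11.34 and 11.29 (-1.31 ± 0.047) and the acetyl-CoA synthetase gene ACSS2 by 1.12. The elongase ELOVL5 fell with the probe set used (-0.67 ± 0.060), while 2 of its other probe sets gave 0.26 and 1.26, so it has no settled direction. Fatty acid oxidation and PPAR targets had 17 of 27 lower and 5 higher (median -0.40). The receptor gene PPARA fell from 7.88, 7.84 and 7.88 to 5.64, 5.30 and 5.28 (-2.46 ± 0.13), and the fatty acid binding protein FABP1 (-1.04 ± 0.051) and the oxidation enzyme HADHA (-0.76 ± 0.066) fell. PPARGC1A, a coactivator of oxidative metabolism, rose from 1.999, 1.87 and 2.20 to 6.17, 6.80 and 6.81 (4.57 ± 0.19). Genes of lipoprotein assembly and lipid absorption had 16 of 20 lower and 2 higher (median -0.95). Over all 27 members with a probe set the median was -0.35. APOM fell from 11.33, 11.22 and 11.43 to 9.65, 9.44 and 9.59 (-1.77 ± 0.074), APOC3 (-1.25 ± 0.052) and APOA4 (-0.97 ± 0.051) fell, and MTTP, the transfer protein that loads lipid onto apolipoprotein B, fell by 2.39, a value seen before it was chosen.

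Plasma protein genes were lower in 22 of 30 tested members and higher in 3 (median -0.91). TF, which encodes transferrin, fell from 10.84, 10.86 and 10.80 to 7.75, 7.53 and 7.57 (-3.22 ± 0.080, 9.3-fold lower). ALB, which encodes albumin, fell from 10.68, 10.58 and 10.74 to 7.72, 7.28 and 7.42 (-3.19 ± 0.11), and AGT, which encodes angiotensinogen, from 12.39, 12.29 and 12.38 to 10.42, 10.41 and 10.36 (-1.96 ± 0.051). In all 3 the groups were far apart. The 3 members that rose were the complement gene C3 (1.20) and the fibrinogen chains FGA (0.95) and FGB (0.47). Iron genes included TF, and 12 of 20 fell and 4 rose (median -0.34). The apical iron transporter SLC11A2 fell from 9.73, 9.77 and 9.63 to 8.39, 8.57 and 8.496 (-1.23 ± 0.081) and the ferroxidase HEPH fell (-0.99 ± 0.080). Metallothioneins and zinc transporters had the lowest median of all lists at -0.96: 13 of 20 fell and 3 rose. MT2A, which binds zinc and copper, fell from 11.23, 11.27 and 11.37 to 9.56, 9.36 and 9.34 (-1.87 ± 0.073). MT1F (-2.75 ± 0.10) and MT1E (-2.49 ± 0.11) fell, but genes of this family are near-identical and their probe sets may share signal. SLC39A4, the apical zinc importer, fell from 10.41, 10.48 and 10.39 to 8.99, 9.01 and 9.02 (-1.42 ± 0.065). The zinc-sensing factor MTF1, chosen after its value was seen, rose (1.05).

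The apical membrane showed falls in many of its transporters and enzymes. Of 24 tested brush border genes, 15 fell and 4 rose (median -0.52). SLC26A3 fell from 8.55, 8.45 and 8.66 to 5.03, 4.05 and 4.48 (-4.03 ± 0.20). The actin-bundling gene VIL1 fell from 12.15, 12.04 and 12.05 to 11.17, 11.15 and 11.11 (-0.94 ± 0.050) and the metalloprotease gene MEP1A from 9.25, 9.41 and 9.47 to 7.77, 7.44 and 7.69 (-1.74 ± 0.11). None of the supernatant arrays of these genes reached a medium array. EPS8, which caps actin in microvilli, rose (0.95 ± 0.064), and the sodium-proton exchanger SLC9A3 lay below the tested range in both groups. Ion, acid-base and water transport had 13 of 26 lower and 8 higher. The sulfate transporter SLC26A2 fell from 12.58, 12.58 and 12.57 to 10.05, 9.76 and 9.90 (-2.67 ± 0.067), the scaffold PDZK1 from 9.27, 9.503 and 9.43 to 6.90, 6.71 and 6.90 (-2.56 ± 0.10), and the water channel AQP3 from 12.46, 12.64 and 12.65 to 10.70, 10.41 and 10.56 (-2.03 ± 0.074). Bile acid genes went both ways. FABP6, the ileal bile acid binding protein, fell from 6.94, 6.57 and 7.04 to 4.79, 4.56 and 4.74 (-2.16 ± 0.16). The hormone gene FGF19 rose from 5.69, 5.96 and 5.93 to 7.27, 7.36 and 7.38 (1.48 ± 0.13). The exporter ABCC3 rose by 1.53 ± 0.13 with the probe set used. Its other tested probe sets gave 0.91 and -0.34, both called, and 0.29 and -0.20, not called. Amino acid transporters fell in 13 and rose in 9 of 26, with SLC7A8 lower (-2.52 ± 0.11), SLC36A1 lower (-1.66 ± 0.082) and SLC7A11 higher. Xenobiotic genes fell in 15 of 24 and rose in 6 (median -0.47). The glutathione transferase GSTA1 (-0.92 ± 0.060), the hydroxylase CYP4F2 (-2.89 ± 0.21) and the receptor NR1I3 (-2.06 ± 0.15) fell.

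**Figure D4:**
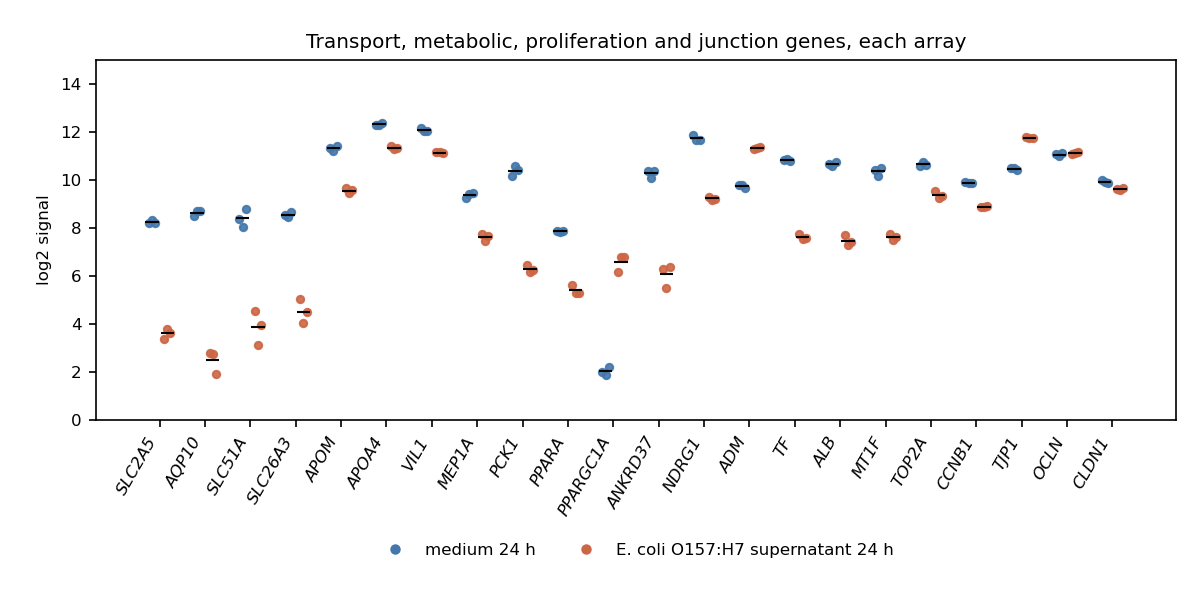
Log2 signal of each array (points) and group mean (line) for 22 genes of transport, metabolism, proliferation and cell junctions, with medium for 24 h in blue and E. coli O157:H7 supernatant for 24 h in orange (3 arrays each). The supernatant arrays of SLC2A5 (3.38 to 3.80) and of AQP10 lie far below the medium arrays, those of TJP1 and PPARGC1A lie above them, and the groups of OCLN lie together.

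Junction genes gave mixed differences. Over all genes tested, 36.3% rose, 11.9% by at least 2-fold, and 27.8% fell. Of 22 tight junction genes, 10 rose and 5 fell (median 0.19), and 5 rose at least 2-fold. TJP1, which encodes the scaffold ZO-1, rose from 10.49, 10.497 and 10.43 to 11.78, 11.76 and 11.77 (1.29 ± 0.050, adjusted p = 1.37e-09), and CLDN4 (0.94 ± 0.080) and PALS1 (1.04 ± 0.10) rose. PARD3 rose with the probe set used (0.99 ± 0.097) and with another (1.06), while others gave 0.0020 and -0.0070 and were not called. OCLN, which encodes occludin, gave 11.08, 10.98 and 11.12 and 11.08, 11.13 and 11.17 and was not called (0.067 ± 0.056, adjusted p = 0.316); its other probe sets gave 0.41 and -0.23, both called, and 0.16, not called, so it has no settled direction. CLDN1, which encodes claudin-1, fell slightly, from 9.99, 9.91 and 9.87 to 9.63, 9.60 and 9.69 (-0.28 ± 0.067). Adherens junction and desmosome genes rose in 10 and fell in 7 of 24, none by 2-fold with the probe sets used. CDH1, which encodes E-cadherin, fell by 0.28 with the probe set used, while another gave -1.05 and was called. NECTIN2 fell by 0.61, and KRT20, a keratin of differentiated enterocytes, rose by 0.39. CTNNB1, which encodes beta-catenin, rose with the probe set used (0.57 ± 0.074), but another gave -0.64 and was called. Mucins and trefoil factors rose in 4 and fell in 4 of 15: TFF1 (0.999 ± 0.081) and MUC13 (0.64 ± 0.10) rose, and TFF2 (-1.04 ± 0.17) and MUC1 (-0.501 ± 0.12) fell, the latter to below the tested range.

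Transcription factors of intestinal lineages rose in 11 and fell in 4 of 18 tested (median 0.79), and over all 24 with a probe set the median was 0.31. PRDM1, a transcriptional repressor, rose from 4.28, 4.24 and 4.57 to 6.64, 6.65 and 7.01 (2.41 ± 0.16; another probe set gave 0.32 and was not called), FOXA2 from 7.78, 7.75 and 7.60 to 9.17, 9.20 and 9.14 (1.46 ± 0.087) and GATA6 from 10.79, 10.93 and 10.80 to 12.32, 12.30 and 12.26 (1.45 ± 0.053; another probe set of GATA6 gave -0.055). SOX9, a factor of progenitor cells, rose by 0.79 ± 0.083. These rises and the falls of VIL1, SLC26A3 and FABP1 stood in the same arrays. Wnt targets rose in 12 and fell in 1 of 18 (median 0.40, or 0.19 over all 23 with a probe set). AXIN2, a feedback inhibitor of the pathway, rose from 4.73, 4.92 and 4.88 to 6.97, 6.76 and 6.89 (2.03 ± 0.13), and RNF43 (1.37 ± 0.14) and DKK1 (0.59 ± 0.051) rose. CCND1, which encodes cyclin D1, gave 9.59, 9.81 and 9.71 and 9.69, 9.77 and 9.82 and was not called (0.059 ± 0.076, adjusted p = 0.521; another probe set gave -0.18 and was not called).

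Mitotic genes fell: 34 of 42 tested were called lower (median -0.64), and 0 were higher by limma's adjusted p or at an unadjusted p under 0.05. TOP2A, the topoisomerase of dividing cells, fell from 10.58, 10.77 and 10.64 to 9.53, 9.24 and 9.34 (-1.29 ± 0.084, adjusted p = 9.2e-08), CCNB1, which encodes cyclin B1, from 9.92, 9.87 and 9.87 to 8.88, 8.86 and 8.90 (-1.005 ± 0.067), and the kinesin gene KIF20A from 7.59, 7.56 and 7.54 to 5.997, 5.97 and 6.02 (-1.57 ± 0.11). Each was lower in all supernatant arrays. PTTG1, which encodes securin, fell too (-0.997 ± 0.081). The promoter of TOP2A, shown because most members of the list share its motif, is the RefSeq sequence at chr17:40417847-40418146 (GRCh38.p14, minus strand), with capitals at matches on either strand to TTTGAA, a motif like the cell cycle homology region.
TOP2A: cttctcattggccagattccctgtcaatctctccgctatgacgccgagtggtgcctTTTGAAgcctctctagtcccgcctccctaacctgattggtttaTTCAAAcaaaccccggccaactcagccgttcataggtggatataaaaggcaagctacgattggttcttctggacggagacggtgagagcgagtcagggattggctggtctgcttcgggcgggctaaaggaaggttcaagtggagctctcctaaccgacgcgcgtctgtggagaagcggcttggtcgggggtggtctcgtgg
The matches began 194 and 151 bases before the start. The motif was found in 22 of the 28 list members with a promoter sequence (78.57%), in 18 of the 23 of them that fell (78.26%) and in 3542 of 22114 promoters (16.02%), so it was about as frequent in the list as in its members that fell. Genes of G1/S and replication were mixed, with 16 lower and 10 higher of 46 (median -0.19). GINS2 (-1.40 ± 0.16), MCM3 (-0.96 ± 0.11) and RRM2 (-0.73 ± 0.079), which act in DNA replication and nucleotide supply, fell, and the kinase gene CDK6 rose from 8.21, 7.86 and 8.25 to 9.86, 9.99 and 9.79 (1.77 ± 0.11). In bulk arrays, fewer dividing cells and less RNA per dividing cell cannot be told apart.

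Genes of ribosome biogenesis mostly rose, and ribosomal protein genes moved little. Of 40 tested biogenesis genes, 33 rose and 2 fell (median 0.97), and 18 rose at least 2-fold. The helicase gene DDX10 rose from 7.45, 7.09 and 7.23 to 9.501, 9.67 and 9.66 (2.35 ± 0.10) and DDX21 from 10.94, 10.94 and 10.94 to 11.93, 11.89 and 11.93 (0.98 ± 0.046), and the processome gene UTP4 (1.17 ± 0.068) and NOP58 (0.92 ± 0.055) rose. Of 41 ribosomal protein genes, 18 fell and 2 rose, with a median of -0.075. RPL3 fell from 12.27, 12.26 and 12.16 to 11.54, 11.65 and 11.52 (-0.66 ± 0.052), and RPL29 (-0.40 ± 0.046), RPS9 (-0.38 ± 0.047) and RPL32 (-0.28 ± 0.043) fell by less. Subunits of oxidative phosphorylation fell in 20 and rose in 9 of 49 (median -0.1), none by 2-fold, as in NDUFA2 (-0.65 ± 0.092) and UQCRC2 (-0.55 ± 0.061). Proteasome subunits rose in 21 and fell in 2 of 30 (median 0.27), as in PSMD12 (0.91 ± 0.068) and PSMD1 (0.68 ± 0.082). Splicing regulators of the SR and CLK families and hosts of small nucleolar RNAs rose in 9 and fell in 5 of 19. The kinase gene CLK1 rose from 8.35, 8.63 and 8.61 to 10.13, 10.05 and 10.15 (1.58 ± 0.087) and the splicing factor gene TRA2B from 11.29, 11.30 and 11.22 to 12.07, 12.15 and 12.17 (0.86 ± 0.049). CLK4 rose with the probe set used (1.74 ± 0.097) and with another (2.01), and not with a further one (-0.085). TRA2A rose with one (1.60 ± 0.10) and fell with 2 others (-0.70 and -0.47).

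Lysosomal and autophagy genes rose in 16 and fell in 8 of 33 (median 0.14). MITF, a regulator of lysosome genes, rose from 4.02, 4.39 and 4.32 to 7.73, 7.81 and 7.93 (3.58 ± 0.14) and GABARAPL1, of the autophagosome membrane, from 8.20, 8.501 and 8.52 to 9.92, 10.03 and 9.99 (1.58 ± 0.094). Enzymes of the Shiga toxin receptor glycolipid and related gangliosides rose in 6 and fell in 11 of 24. A4GALT, the synthase of globotriaosylceramide, gave 3.81, 3.75 and 4.12 with medium and 4.46, 4.03 and 3.96 with supernatant. UGCG, which makes its precursor glucosylceramide, gave 10.49, 10.43 and 10.49 and 10.58, 10.55 and 10.51. Neither was called (0.26 ± 0.17, adjusted p = 0.211, and 0.075 ± 0.056, adjusted p = 0.266), and the A4GALT groups overlapped. GLA, the lysosomal enzyme that degrades globotriaosylceramide, rose from 9.80, 9.67 and 9.71 to 11.09, 11.12 and 11.12 (1.38 ± 0.059). LAPTM4A (-0.43 ± 0.046), which is needed for the synthesis of the glycolipid, the galactosyltransferase B4GALT6 (-0.85 ± 0.081) and the ganglioside activator GM2A (-1.08 ± 0.10) fell.

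Circadian clock genes rose in 12 of 15 tested (median 1.14), 10 of them at least 2-fold, and 0 fell by limma's adjusted p or at an unadjusted p under 0.05. The activators CLOCK (1.60) and BMAL1 (0.94), chosen after their values were seen, were among them. The repressor BHLHE41 rose from 3.35, 3.32 and 3.86 to 7.57, 7.82 and 7.57 (4.15 ± 0.17), HLF, a clock output factor, from 2.85, 2.73 and 3.20 to 5.998, 5.47 and 6.04 (2.91 ± 0.19), NR1D2, which encodes the repressor REV-ERB-beta, from 6.91, 7.36 and 7.26 to 9.03, 9.001 and 8.96 (1.82 ± 0.12), and CRY1 from 8.73, 9.05 and 8.78 to 9.96, 9.92 and 10.11 (1.14 ± 0.094). With 1 time point, phase and level cannot be told apart. Matrix proteases and inhibitors rose in 8 and fell in 3 of 15. The collagenase gene MMP1 rose from 6.76, 6.91 and 6.73 to 8.85, 8.74 and 8.75 (1.98 ± 0.098) and its inhibitor TIMP1 from 6.89, 6.82 and 6.80 to 8.29, 8.33 and 8.40 (1.503 ± 0.098), while TIMP3 fell with the probe set used (-0.99 ± 0.096). Its 3 other probe sets gave -0.26, which was called, and -0.28 and -0.0016, which were not. Genes of TGF-beta, BMP and matrix went both ways (12 higher and 9 lower of 31), near the shares of all genes tested (36.3% and 27.8%). The BMP target ID1 (-1.38 ± 0.077), ID2 (-0.74 ± 0.052) and the collagen COL12A1 (-1.48 ± 0.057) fell, and FBN2 rose.

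Prostaglandin genes were mixed as a list, with 7 higher and 6 lower of 17, against 36.3% and 27.8% of all genes tested. The gene for synthesis and the gene for breakdown moved apart. PTGS2, which encodes the inducible cyclooxygenase, rose from 6.62, 7.16 and 6.83 to 9.19, 9.12 and 9.17 (2.28 ± 0.13, 4.87-fold). HPGD, which inactivates prostaglandins, fell from 11.47, 11.53 and 11.74 to 10.08, 9.89 and 9.97 (-1.60 ± 0.077). The receptor PTGER4 rose from below the tested range (2.85 ± 0.21). Among adhesion molecules and galectins, 4 of 13 rose and 7 fell. The adhesion molecules CEACAM7, from 2.97, 2.77 and 3.32 to 5.60, 5.53 and 5.89 (2.66 ± 0.17), and CEACAM6 (1.20 ± 0.067) rose, and LGALS14 and LGALS2 (-2.03 ± 0.072) fell. Of 8 histone genes, H4C8 rose (3.99 ± 0.17) and H2BC5 fell (-1.29 ± 0.084), and these genes belong to families of near-identical copies.

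The E. coli difference was then set against the differences of the 3 probiotic supernatants from medium for 8 h, in 1 limma fit over all 20 arrays. The array set, the RNA input and the culture broth all differ with the strain. So do the volume of supernatant (5% against 10%) and the time of the control (24 h against 8 h), and all these cannot be told apart. The E. coli difference departed from the mean of the 3 probiotic differences in 6324 genes (53.3%), upward in 3725 (31.4%) and downward in 2599 (21.9%). ATF3 differed from medium by 5.83 with E. coli supernatant and by 0.85, 0.505 and 0.74 with supernatant of NCFM, B. lactis 420 and Ls-33 in that order, and the difference of differences was 5.13 ± 0.19 (adjusted p = 1.17e-15). AQP10 differed by -6.14 against -0.041, 0.011 and -0.047 (-6.12 ± 0.22, adjusted p = 1.24e-15). CXCL8 differed by 4.87 against 0.36, 0.58 and 1.01 (4.22 ± 0.28). Thus AQP10 after 24 h with the probiotic supernatants lay near its level in medium for 8 h. That array set held no medium for 24 h, so an effect of the supernatants alone cannot be read from this. MMP1 differed by 1.98 with E. coli and by 2.40, 2.07 and 2.35 with the probiotic supernatants, and this difference of differences was -0.29 ± 0.21 (adjusted p = 0.267).

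The 15 largest falls with E. coli supernatant were also looked up in the live probiotic co-cultures, which share no array with the E. coli comparison but share 1 medium group of 2 arrays among themselves. Of the 15, 13 were called lower with live NCFM, where 16.7% of all genes were, 14 with live B. lactis 420 (15.5%) and 15 with live Ls-33 (17.9%). With the supernatants of the same strains, 1, 1 and 2 of the 15 were called lower (4.17%, 6.93% and 5.99% of all genes). SLC2A5 fell by 4.63 with E. coli supernatant and differed by -4.64, -4.58 and -4.86 with the live strains in the same order, and TNFSF10 fell by 4.76 and differed by -4.41, -4.21 and -4.37. ANKRD37 fell by 4.21 and differed by -0.70, -0.81 and -0.68 in the co-cultures. LINC01091 was called lower with live Ls-33 and with neither of the other strains (0.21, -0.38 and -0.88). Of the 13 largest rises that passed the filter of this fit, 4, 5 and 6 were called higher with the live strains in the same order (15.4%, 16.6% and 17.8% of all genes), and 3, 2 and 5 with the supernatants (3.77%, 4.48% and 6.76%). TNFRSF9 rose by 4.38 with E. coli and by 0.77, 2.82 and 3.84 with the live strains, whereas FBN2 differed by -0.18, -0.22 and -0.31 with them and was not called. CCL20 fell by 0.84 with E. coli and differed by 0.034, 2.76 and 2.60 with the live strains in the same order. Across all 11865 genes, which share libraries and are not independent, the Pearson correlation of the E. coli difference was 0.270, 0.211 and 0.302 with the NCFM, B. lactis 420 and Ls-33 supernatants and 0.255, 0.352 and 0.422 with their live cells.

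**Figure D5:**
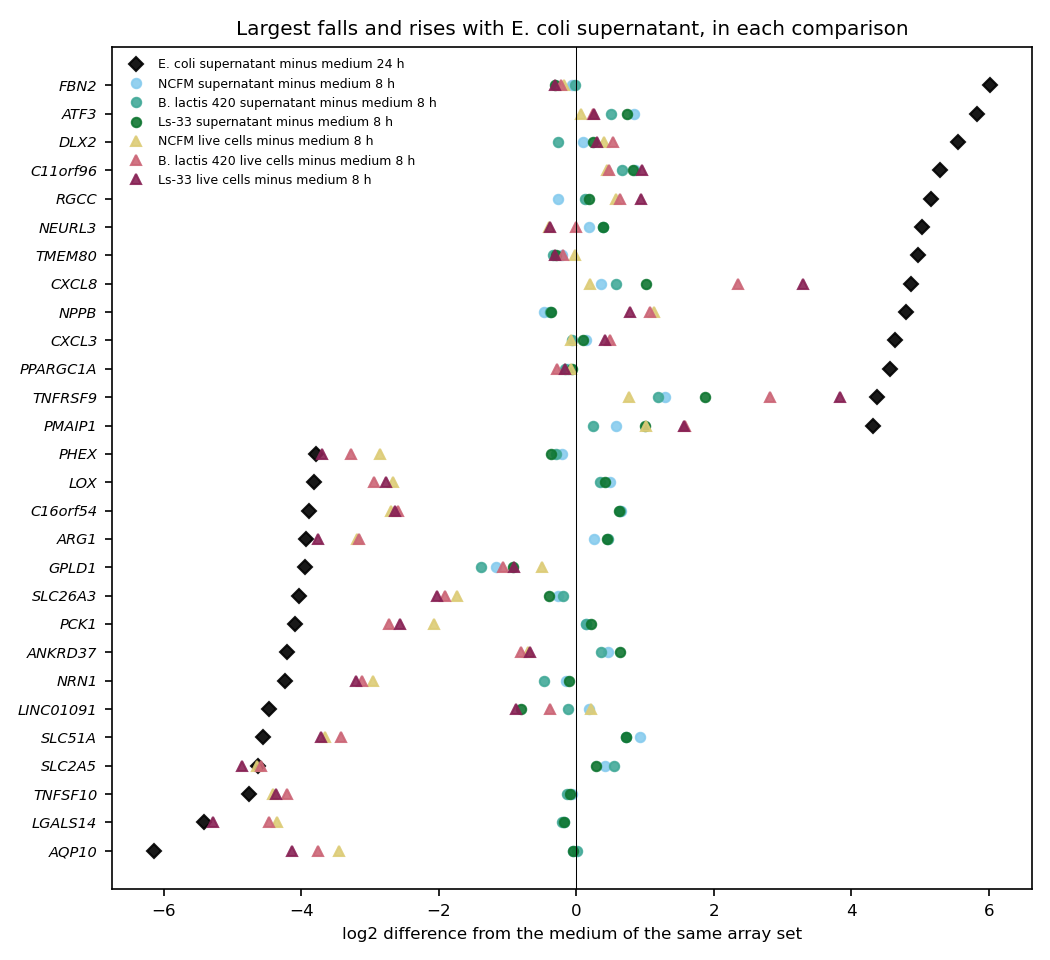
Log2 difference from the medium of the same array set for the 15 largest falls and for 13 of the 15 largest rises with E. coli supernatant (black diamonds), with the same genes in the 3 probiotic supernatants (circles) and the 3 live co-cultures (triangles). Many of the falls, such as SLC2A5 and TNFSF10, recur as triangles far left of 0 while the circles lie near 0, and several of the rises, such as FBN2 and DLX2, lie near 0 in the other comparisons.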

How the data were processed

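Total RNA of Caco-2 cells was hybridised to 20 Affymetrix arrays, 6 of which enter the main comparison. The deposited values are log2 signals per probe set, which the authors computed by RMA, per the submitters' processing notes (its version is not given in the sources used here). RMA corrects background, quantile-normalizes and summarises probes. Normalizing arrays to 1 distribution can hide a shift shared by most genes. Probe sets were named from the platform annotation, with symbols updated through RefSeq. Of 54675 probe sets, 41091 had 1 symbol, 1801 several and 11721 none, and 19775 genes were kept, with 1 probe set each. Probe sets with names ending in _x_at were used only for genes that had no other kind. Among the rest, the brightest on average across all 20 arrays stood for the gene, so a brighter _x_at probe set could be passed over. Genes at or above the 40th percentile were tested with limma 3.58.1 in R 4.3.3 (lmFit and eBayes with a trend, Benjamini-Hochberg over 11865 genes). The script was tested on simulated data. Named genes were the 15 largest rises and falls, for each list the called members of lowest adjusted p, at most 4, a fixed set, and the 8 largest differences each way from the probiotic supernatants. One member of the fixed set is not reported here. Members and lists were chosen with earlier results of these data known. Motifs were searched on both strands of RefSeq promoters. The number of arrays limits the precision. No intensity files were used here.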

Additional observations from a re-analysis of the deposited data

Results flagged for a closer look

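The difference between the effect of E. coli supernatant and the mean effect of the 3 probiotic supernatants, tested in the limma fit over 20 arrays, passed the threshold in 6324 genes. The effect was higher by 6.15 in FBN2, 5.52 in DLX2, 5.25 in TMEM80, 5.19 in NPPB, 5.14 in RGCC, 5.13 in ATF3, 4.71 in NEURL3 and 4.68 in PPARGC1A, all on the log2 scale. It was lower, with differences of -6.12 in AQP10, -5.35 in SLC51A, -5.23 in LGALS14, -5.05 in SLC2A5, -4.70 in ANKRD37, -4.67 in TNFSF10, -4.52 in C16orf54 and -4.32 in ARG1. Strain, culture broth, array set, RNA input, volume of supernatant and time of the control differ together, so their parts cannot be told apart. SLC51A differed by 0.92, 0.73 and 0.72 with the NCFM, B. lactis 420 and Ls-33 supernatants, opposite in sign to its fall with E. coli supernatant, and the first of these was called. Groups of 3 arrays were not searched for outlying arrays.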

How the results depend on the processing

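The count of 7605 called genes was 6724 to 7703 without 1 array at a time, 7597 after quantile normalization of the 6 arrays, 8007 with no filter, 8007 with all 20 arrays in 1 fit, 7390 without a trend, 7456 with the mean of a gene's probe sets, 6795 with the ACTB 3'-5' difference as a covariate and 5619 with the 60th percentile as the filter. Tested probe set by probe set, 14083 of 24655 were called, 7887 higher (2690 of them by at least 2-fold) and 6196 lower (1486 by at least 2-fold), since there are more features. Of 3406 genes with 2 or more called probe sets, 517 (15.2%) had called probe sets in both directions. With the replicate number as a block, 7394 genes were called; deviations of arrays with the same number correlated at -0.14, -0.062 and 0.036, so the numbers do not pair the arrays.

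Differences of opposite sign came from ELOVL5 with the mean of its probe sets (0.20) and from other probe sets of EREG (-0.14), NRG1 (-0.38), SLC6A6 (0.27), TRA2A (-0.70 and -0.47), ELOVL5 (0.26 and 1.26), DLX2 (-0.19), PARD3 (-0.0070), CTNNB1 (-0.64), GATA6 (-0.055), ABCC3 (-0.20 and -0.34), CLK4 (-0.085) and IFNGR1 (-0.98). In genes that were not called, other probe sets of OCLN (-0.23), CCND1 (-0.18), UGCG (-0.13) and ICAM1 (-0.0046) also had the opposite sign, that of OCLN being called. In 23 cases another probe set kept the direction of a called gene but lost the call: C11orf96 (0.017), TIMP3 (-0.28 and -0.0016), PARD3 (0.0020), SQSTM1 (0.11), PRDM1 (0.32), TAGLN (0.23), GINS2 (-0.097), ERBB3 (-0.15 and -0.21), HERPUD1 (-0.22), ABCC3 (0.29), TRA2A (0.045), PSMC2 (0.26 and 0.057), PSMD12 (0.20), NECTIN2 (-0.13), HEPH (-0.38), SLC6A6 (-0.28), PDIA3 (-0.15), APOC3 (-0.41), B2M (0.35) and RPS9 (-0.020). With the mean of their probe sets CTNNB1 (0.11), IFNGR1 (0.0040) and TRA2A (0.086) were not called. The cause was not tested. Of the 50 list medians, 42 kept their sign with the 60th percentile as the filter, 47 after quantile normalization, 47 with the mean of probe sets, 49 with no filter, and 48 to 50 without 1 array at a time. With the 60th percentile they turned for MHC class I (-0.035), antimicrobial (-0.011), bile acid (0.091), mucin (0.23), Shiga toxin receptor glycolipid (-0.30), ion transport (0.020), TGF-beta (-0.10) and prostaglandin genes (0.31). Over all alternatives, 174 list medians moved by more than the spread between arrays and 526 did not. Quantile normalization moved the share of calls that were higher from 56.7% to 52.1%. With the ACTB covariate CD14 lost its call (0.43, adjusted p = 0.0977), and ICAM1 (0.71, adjusted p = 0.000815) and EGR1 (0.25, adjusted p = 0.0439) gained one. EGR1 was also called with the 60th percentile as the filter (adjusted p = 0.047), with all 20 arrays (adjusted p = 0.0104) and with the mean of its probe sets (0.53, adjusted p = 0.000361).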
